A study of Mus musculus with 13 samples.

Results

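Mouse oocytes maturing to metaphase II were examined for 10 genes that license DNA for replication: Mcm2, Mcm3, Mcm4, Mcm5, Mcm6, Mcm7, Orc1, Orc6, Cdc6 and Cdt1. They were listed by symbol, but with earlier results of these data known. All 10 were found among the 18939 gene symbols of the deposited count tables and the 49686 of the FPKM table. All 10 also passed the filter on low counts in every comparison. The samples were single oocytes of C57BL/6 females, aged 3 to 4 weeks and primed with PMSG, a gonadotropin that stimulates follicle growth. The oocytes had been injected with mRNA for FBL–GFP, a fluorescent nucleolar protein, and H2B-mCherry, a fluorescent histone, and held for 6 h in Cilostamide, a phosphodiesterase inhibitor that keeps them at prophase. Each oocyte was then classed as surrounded nucleolus (SN), with condensed chromatin around the nucleolus, or non-surrounded nucleolus (NSN), with more open chromatin. Oocytes were sequenced with an intact nucleus, the germinal vesicle (SN-GV, n = 3, and NSN-GV, n = 3), or after maturation in vitro to metaphase II (SN-MII, n = 4, and NSN-MII, n = 3). No source gave the animal of each oocyte, so the p-values measure only the spread between these oocytes. Injection and the inhibitor were common to all groups, and no uninjected oocyte was analysed here. MII oocytes were also released from the inhibitor and cultured further, so stage and time in culture cannot be told apart.

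Licensing is the loading of the replicative helicase onto DNA before S phase. The origin recognition complex, of which Orc1 and Orc6 are subunits, binds origins, and Cdc6 and Cdt1 then bring on the MCM ring, which holds 1 copy of each of the 6 subunits MCM2 to MCM7. Geminin, the product of Gmnn, binds Cdt1 and blocks it. An oocyte does not replicate its DNA between the 2 meiotic divisions, but it stores proteins and mRNAs that the embryo uses in its first S phases. Transcription is silent during maturation, and stored mRNAs are known either to be degraded or to gain a longer poly(A) tail and be translated.

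The libraries held 7140416 to 8846287 counts each and no 2 were copies of each other. Oocyte markers summed to between 9480 and 15900 FPKM in every library, and 16 granulosa and cumulus cell markers to 31.3 to 40.5 FPKM in the GV oocytes and 42.6 to 67.1 FPKM in the MII oocytes. Of these somatic markers, Foxl2 and Ptx3 were at 0 throughout. Others were detected, such as Nr5a2 at 2.58 to 11.2, Kitl at 0.59 to 7.58 and Col4a1 at 1.46 to 7.19 FPKM. Cyp19a1 was the highest of the 16, at 16.8 to 27.6 FPKM in the GV oocytes and 30.2 to 53.0 FPKM in the MII oocytes. Whether the higher marker sum at MII had a part in the stage results was not tested. FPKM, fragments scaled by transcript length and by library size, allows genes to be set side by side. Changes were tested on counts with the quasi-likelihood test of edgeR, and p-values were adjusted over all genes by the Benjamini-Hochberg method. Reverse transcription in this protocol starts at the poly(A) tail, so a change in the amount of an mRNA and a change in its tail cannot be told apart, and values are shares of a library rather than molecules per oocyte.

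To find how these mRNAs changed during maturation, MII was compared with GV over both oocyte types. All 10 changed, and they split evenly: 5 rose (Mcm2, Mcm4, Mcm7, Orc1 and Orc6) and 5 fell (Mcm3, Mcm5, Mcm6, Cdc6 and Cdt1). The split ran through the MCM ring itself, with 3 subunits higher and 3 lower. Changes of this kind were common, since 31.7% of all 11375 genes tested rose and 36.9% fell, so the count of members is not a result about them. Their median absolute log2 change of 1.11 was close to the 1.14 of all genes. The median log2 change of the members was 0.03, and that of all genes -0.10. DESeq2 called all 10 as well, and 7996 of the 11375 genes. For 7 of the 10 the CPM (counts scaled by library size) of the GV and MII libraries did not overlap, which held for 47.4% of all genes.

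**Figure D1:**
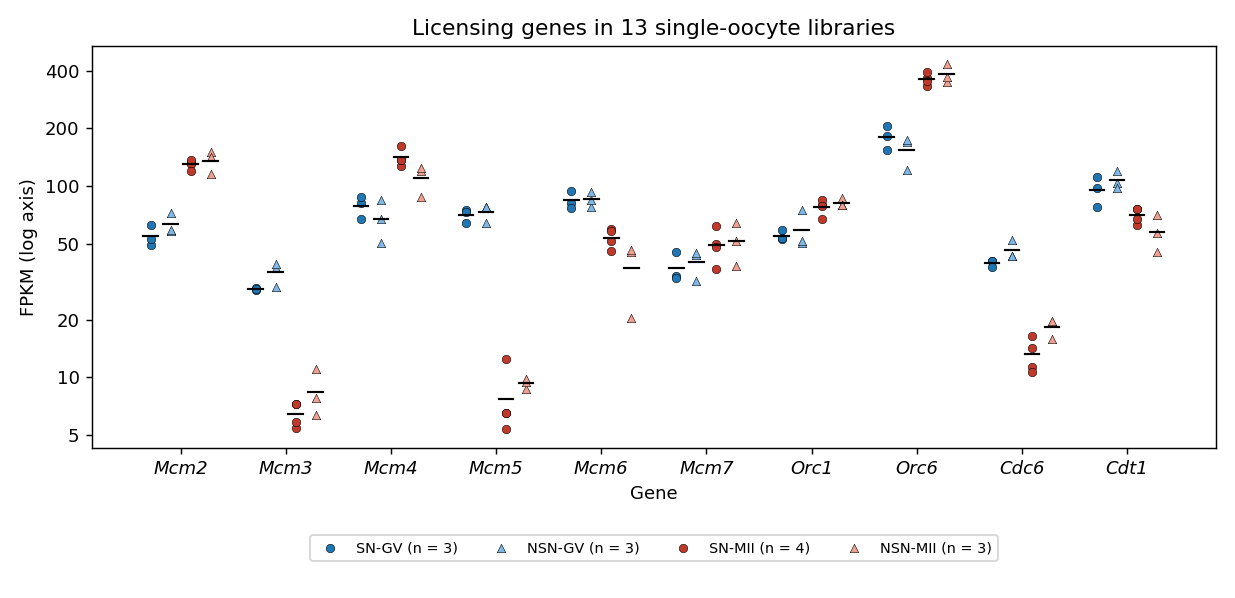
FPKM (log axis) of the 10 genes in each of 13 oocytes, with 1 symbol per oocyte and a bar at the group mean (SN-GV, NSN-GV and NSN-MII, n = 3; SN-MII, n = 4). Mcm5 stood at 63.8 to 77.5 FPKM in the GV oocytes and 5.35 to 12.4 FPKM in the MII oocytes, while Orc6 stood at 122 to 206 and 333 to 434 FPKM.

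Mcm5, a subunit of the MCM ring (chr8:75109569-75128439, plus strand, mm10), fell furthest. It was at 63.9, 74.9 and 73.1 FPKM in the SN-GV oocytes and at 63.8, 77.5 and 77.3 FPKM in the NSN-GV oocytes. In the SN-MII oocytes it was at 5.35, 12.4, 6.49 and 6.55 FPKM, and in the NSN-MII oocytes at 8.69, 9.43 and 9.84 FPKM. Every MII oocyte was thus far below every GV oocyte, and the values of the 2 types overlapped at both stages. The log2 change was -2.91 (SE 0.19), a 7.49-fold lower level, with an adjusted p of 1.15e-09.

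Mcm3 (chr1:20802968-20820312, minus strand), which lies beside Mcm5 in the assembled ring, fell next. Its FPKM was 29.3, 28.5 and 28.8 in SN-GV, and 29.6, 37.5 and 39.1 in NSN-GV. After maturation it was 5.43, 7.25, 7.29 and 5.81 in SN-MII, and 7.83, 6.36 and 11.1 in NSN-MII. The stages did not overlap, and the counts gave a log2 change of -1.53 (SE 0.18, adjusted p = 1.21e-06), 2.88-fold lower. FPKM showed a larger drop, from a mean of 32.1 ± 4.82 (SD, n = 6) to 7.29 ± 1.87 (SD, n = 7). The transcript length implied by the ratio of counts to FPKM also differed by stage, with a mean of 2146 bases at GV and 2870 at MII, so the estimated mix of Mcm3 transcripts was not the same at the 2 stages.

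Mcm6 (chr1:128331590-128359664, minus strand) had been the highest MCM subunit in 5 of the 6 GV oocytes. It stood at 81.7, 93.8 and 77.2 FPKM in SN-GV and at 78.1, 85.0 and 93.2 FPKM in NSN-GV. In SN-MII it was at 59.3, 58.3, 51.4 and 45.9 FPKM, and in NSN-MII at 45.3, 46.4 and 20.4 FPKM. All MII oocytes were below all GV oocytes, and NSN-MII replicate 3 was lowest. The log2 change was -0.80 (SE 0.16, adjusted p = 0.000301).

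The 3 other subunits rose. Mcm2 (chr6:88883474-88898780, minus strand) was at 49.0, 62.3 and 53.1 FPKM in SN-GV and 58.5, 58.9 and 72.3 FPKM in NSN-GV. It was at 133, 129.8, 119.6 and 137 FPKM in SN-MII and at 115, 150.3 and 141 FPKM in NSN-MII. The stages did not overlap, with a log2 change of 1.32 (SE 0.15, adjusted p = 6.17e-07), 2.50-fold higher. Mcm4 (chr16:15623897-15637400, minus strand) ranged from 50.6 to 87.6 FPKM at GV, with a median of 74.5 FPKM, and from 87.7 to 163 FPKM at MII. Its log2 change was 0.95 (SE 0.17, adjusted p = 0.000102), although the stages overlapped in CPM and met in FPKM, where the highest GV oocyte was at 87.6 and the lowest MII oocyte at 87.7.

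Mcm7 (chr5:138164583-138172422, minus strand) was the weakest of these calls. It ranged from 31.7 to 45.0 FPKM at GV and from 36.6 to 63.9 FPKM at MII, so the stages overlapped. The counts gave a log2 change of 0.59 (SE 0.19, adjusted p = 0.0104). The call was lost when log2(FPKM + 1) was tested with limma (adjusted p = 0.0687) and when libraries were scaled by their totals (adjusted p = 0.138). Exons of Mcm7 share 64 bases with Cops6 and 321 bases with Ap4m1 on the opposite strand, and 2 miRNA genes lie inside it. The sources gave no strand setting for the counting, so reads in the shared bases could come from either gene.

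The ring's mRNAs were closer to balance at GV than at MII. In each GV oocyte the highest of the 6 subunits was 2.38 to 3.30 times the lowest by FPKM, whereas in each MII oocyte it was 14.4 to 28 times the lowest. The summed FPKM of the 6 subunits changed little beside that, from 332 to 411 at GV and from 303 to 420 at MII. Their summed CPM was higher at MII, at 1100 ± 147 (SD, n = 6) at GV and 1400 ± 212 (SD, n = 7) at MII. A ratio within an oocyte does not depend on how libraries are scaled to each other. The ratio of Mcm2 to Mcm5 CPM was 1.03 ± 0.12 (SD, n = 6) at GV and 20.4 ± 5.62 (SD, n = 7) at MII, with ranges of 0.903 to 1.18 and 13.4 to 29.6. Mcm2 and Mcm5 were the subunits that rose and fell most, so this ratio restates their changes and is not separate evidence. Mcm3 and Mcm5 both fell, yet not equally, since the Mcm3 to Mcm5 ratio of CPM went from 0.342 ± 0.035 (SD, n = 6) to 0.915 ± 0.19 (SD, n = 7). Mcm3 was the lowest subunit by FPKM in all GV oocytes but NSN-GV replicate 2. Its FPKM there rests on the shorter implied length given above. In CPM, which uses no length, the Mcm2 to Mcm3 ratio was 3.02 ± 0.395 (SD, n = 6) at GV and 22.6 ± 5.1 (SD, n = 7) at MII.

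**Figure D2:**
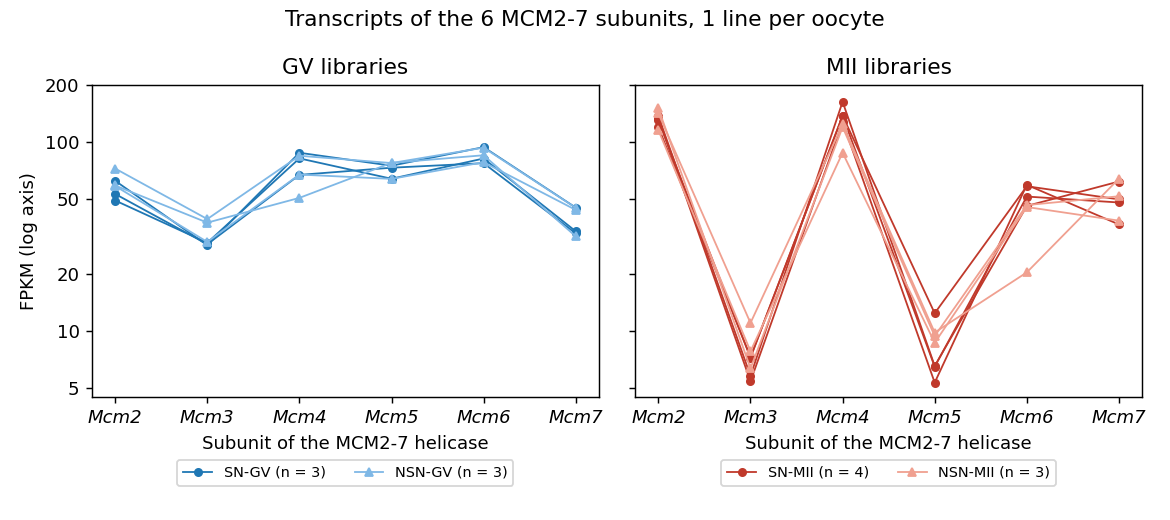
FPKM (log axis) of the 6 MCM2 to MCM7 subunits, with 1 line per oocyte, GV oocytes in the left panel and MII oocytes in the right. At GV the lines stay within a 3.30-fold span, whereas at MII every line dips at Mcm3 and Mcm5 and the span is at least 14.4-fold.

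The origin recognition subunits both rose. Orc6 (chr8:85299632-85308278, plus strand) was the most abundant of the 10 at both stages, and its FPKM overlapped that of no other member in any group. It stood at 206, 182 and 155 FPKM in SN-GV, and at 122, 169 and 174 FPKM in NSN-GV. It stood at 369, 333, 352 and 396 FPKM in SN-MII, and at 351, 372 and 434 FPKM in NSN-MII. The stages did not overlap, and the log2 change was 1.32 (SE 0.17, adjusted p = 3.33e-06). Orc6 shares 171 exonic bases with Vps35 on the opposite strand, a gene at a mean of 261 CPM, and its estimated counts were not whole numbers in 8 of the 13 oocytes, so some of its reads were divided between genes.

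Orc1 (chr4:108579423-108614833, plus strand), an ATP-binding subunit that is lost from the complex after licensing in many cells, rose less. It was at 50.6 to 74.7 FPKM at GV and at 67.1 to 86.5 FPKM at MII. In CPM the stages did not overlap, while in FPKM NSN-GV replicate 1, at 74.7 FPKM, lay above SN-MII replicate 2, at 67.1 FPKM. The log2 change was 0.59 (SE 0.13, adjusted p = 0.000619).

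Both helicase loaders fell. Cdc6 (chr11:98907801-98923940, plus strand) was at 40.4, 40.4 and 37.8 FPKM in SN-GV and at 52.2, 43.0 and 43.1 FPKM in NSN-GV. It was at 16.5, 11.3, 10.7 and 14.2 FPKM in SN-MII and at 19.4, 15.8 and 19.7 FPKM in NSN-MII. The stages did not overlap, and the log2 change of -1.27 (SE 0.16, adjusted p = 2.37e-06) was a 2.41-fold lower level. Cdt1 (chr8:122568015-122573554, plus strand) fell least of the 5, from a range of 77.3 to 119.6 FPKM at GV to one of 45.3 to 76.0 FPKM at MII. Its log2 change was -0.53 (SE 0.15, adjusted p = 0.00405), and the stages overlapped in CPM though not in FPKM.

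At MII the order of levels differed from that at GV. By mean FPKM over the GV oocytes it was Orc6 (168), Cdt1 (101), Mcm6 (84.9), Mcm4 (73.1), Mcm5 (71.7), Mcm2 (59.0), Orc1 (57.1), Cdc6 (42.8), Mcm7 (38.6) and Mcm3 (32.1), and only Orc6 stood apart from its neighbour by range. Over the MII oocytes it was Orc6 (373), Mcm2 (132), Mcm4 (128), Orc1 (79.3), Cdt1 (64.9), Mcm7 (49.99), Mcm6 (46.7), Cdc6 (15.4), Mcm5 (8.40) and Mcm3 (7.29). There the ranges were apart after Orc6, after Mcm4 and after Mcm6, which left Cdc6, Mcm5 and Mcm3 as a low group. Across the 13 oocytes the most alike pair in log2(CPM + 1) was Mcm3 and Mcm5 (Pearson's r = 0.97), and after the group means were taken out it was Mcm4 and Mcm7 (r = 0.88). These values describe oocytes that share their stage and library depth.

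Sequence near the ends of these mRNAs is shown because tail length in the oocyte is known to be set there. CPEB proteins bind U-rich words, typically TTTTAT or TTTTAAT in DNA letters, close to the poly(A) signal AATAAA or ATTAAA. The words were searched on the mRNA strand in the last 100 bases of the annotated coding transcript nearest to the implied length (GENCODE M21, mm10). All 5 genes that rose held a U-rich word there, against 1 of the 5 that fell, Cdt1. The 30 bases around the word are given 5′ to 3′, with the words and any poly(A) signal in the window in capitals. Mcm2 (chr6:88883482-88883511, minus strand) and Mcm7 (chr5:138164605-138164634, minus strand) had both words within 30 bases.
Mcm2: attTTTTAATagatttgAATAAAacctaaa
Mcm7: cttTTTTATtctgccAATAAAgtgttttga
Mcm4: aatTTTTATagatccttagattattagttt
Orc6: acaTTTTATttggttttgtggttttttaaa
Orc1: gatacaaagtaaaattgaTTTTATagaaaa
Cdt1: ggcTTTTAATAAAgtcatgtaagatttaaa
The Mcm4 site (chr16:15623960-15623989, minus strand) began 90 bases and the Orc6 site (chr8:85307987-85308016, plus strand) 82 bases before the annotated end. The Orc1 word lay 12 bases before its end (chr4:108614804-108614833, plus strand), with no poly(A) signal in the last 100 bases. In Cdt1 (chr8:122573081-122573110, plus strand) the word began 45 bases before the end and overlapped an AATAAA, and a separate AATAAA began 20 bases before the end, where the window cuts it off. In Mcm2 the word and the signal began 35 and 21 bases before the end.

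Of the other genes that fell, Mcm5 (chr8:75127641-75127670, plus strand) and Mcm6 (chr1:128331590-128331619, minus strand) had the signal alone, in capitals here.
Mcm5: ggtAATAAAgcaattgagtccctggctgct
Mcm6: cccatgaaAATAAAacaacttgttctgtga
The longer annotated transcripts of Mcm5, Mcm6 and Cdc6 had no U-rich word in their last 100 bases either, whereas Mcm3 and the nearest Cdc6 transcript had neither word nor signal there. The same search over the longest coding transcript of each gene found the U-rich word in 19.99% of 10747 tested genes. It was in 29.3% of the 3538 genes that rose and in 11.1% of the 3808 that fell. Among the members and among all genes alike, the word was more frequent in those that rose. A match is only a match of letters, and neither binding nor tail length was measured.

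**Figure D3:**
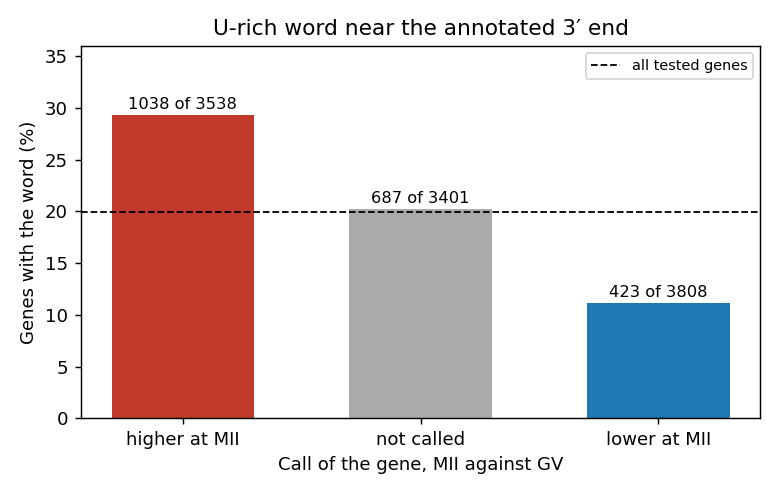
Share of genes (%, axis from 0) whose last 100 annotated 3′ UTR bases hold TTTTAT or TTTTAAT, by the call of the gene at MII against GV, with the number of genes over each bar and a dashed line at the 19.99% of all tested genes. Genes higher at MII held the word in 29.3% and genes lower at MII in 11.1%.

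The start sites of the genes were examined for another shared feature, since licensing genes are known targets of E2F factors at the start of S phase. The words TTTCCCGC, TTTCGCGC, TTTGCCGC and TTTGGCGC were searched on both strands from 250 bases before to 50 after the RefSeq start (GRCm38.p6). A promoter was found for 9 of the 10 genes, and 7 of the 9 held a word: Mcm3, Mcm5, Mcm6, Mcm7 in 1 of its 2 entries, Orc1, Cdc6 and Cdt1. Among all 32851 promoters 2.26% held one, and among those of tested genes 3.93%. The share was 3.58% for genes that rose and 4.28% for genes that fell. In Mcm5 (chr8:75109345-75109374, plus strand) and Mcm6 (chr1:128359797-128359826, minus strand) a pair of words on opposite strands overlapped, and the first of each pair is in capitals.
Mcm5: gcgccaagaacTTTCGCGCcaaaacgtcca
Mcm6: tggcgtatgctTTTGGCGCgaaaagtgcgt
All 5 genes that fell held a word, and of the 4 genes that rose and had a promoter, Mcm7 and Orc1 held one while Mcm2 and Orc6 did not.

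Partner genes of the pathway changed in both directions. Of 8 other licensing factors, 3 rose (Gmnn, Mcmbp and Kat7), 2 fell (Orc3 and Lrwd1) and 3 did not pass. Gmnn, the inhibitor of Cdt1, rose from 146 ± 41.2 FPKM (SD, n = 6) to 266 ± 35.5 FPKM (SD, n = 7), a log2 change of 1.04 (SE 0.17, adjusted p = 5.38e-05). As Cdt1 fell, the ratio of Cdt1 to Gmnn CPM went from 1.95 ± 0.73 (SD, n = 6) to 0.655 ± 0.17 (SD, n = 7), and the ranges of 1.2 to 2.96 and 0.372 to 0.901 did not overlap. Mcmbp, which binds MCM subunits outside the ring, rose with a log2 change of 1.81 (SE 0.17, adjusted p = 1.26e-07).

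Within the origin recognition complex, Orc3 fell from 40.8 ± 4.10 FPKM (SD, n = 6) to 7.27 ± 4.47 FPKM (SD, n = 7), a log2 change of -2.73 (SE 0.33, adjusted p = 1.45e-06). Orc2 had a log2 change of -0.22, Orc4 of -0.19 and Orc5 of 0.20, and none of the 3 passed with edgeR (adjusted p = 0.297, 0.311 and 0.155) or with DESeq2, while Orc4 passed with limma on log2(FPKM + 1) (adjusted p = 0.0214). Orc5, at 428 ± 29.6 FPKM (SD, n = 6) at GV and 459 ± 70.9 FPKM (SD, n = 7) at MII, was above Orc6 in FPKM in every oocyte except SN-MII replicate 4 (388 against 396) and NSN-MII replicate 3 (363 against 434).

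Of 14 genes that fire licensed origins, 7 rose and 5 fell (Gins1, Gins2, Gins4, Topbp1 and Recql4). CDC7 and DBF4, which form the kinase that phosphorylates the MCM ring, had mRNAs that both rose, with log2 changes of 1.33 (SE 0.15, adjusted p = 1.01e-06) for Cdc7 and 1.13 (SE 0.14, adjusted p = 1.88e-06) for Dbf4. CDC45 and the 4 GINS proteins join the ring to form the active helicase. Cdc45 rose (0.59, SE 0.17, adjusted p = 0.00574) while Gins1, Gins2 and Gins4 fell, with log2 changes of -2.97, -2.63 and -4.36 (adjusted p = 1.63e-07, 4.31e-09 and 9.61e-11). Gins4 went from 108 ± 11.7 FPKM (SD, n = 6) to 4.68 ± 1.26 FPKM (SD, n = 7). Gins3 had a log2 change of 0.44 and Mcm10 of -0.31, and neither passed with edgeR (adjusted p = 0.0692 and 0.0677). Mcm10, at 64.4 ± 10.1 FPKM (SD, n = 6) at GV and 41.8 ± 4.84 FPKM (SD, n = 7) at MII, did pass with DESeq2 (adjusted p = 0.0247) and with limma on log2(FPKM + 1) (adjusted p = 0.000939).

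Genes of Cdt1 turnover, the ubiquitin ligase parts and PCNA that remove Cdt1 protein, counted 8 of 9 higher and 1, Skp1a, lower. Of 25 replication fork genes, 11 rose and 13 fell. Over all genes tested the shares were the 31.7% and 36.9% given above, and no list was tested as a group. Among the relatives of the ring, 2 genes were tested. Mcm9 counts fell by 0.63 on the log2 scale (SE 0.17, adjusted p = 0.00346), but its FPKM, 11.9 ± 2.96 (SD, n = 6) at GV and 12.7 ± 4.42 (SD, n = 7) at MII, gave no call (limma adjusted p = 0.881). Mcm8 had a log2 change of 0.33 and did not pass (adjusted p = 0.13).

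The stage change was then taken in each oocyte type. In SN oocytes 4 members rose and 3 fell, where 25.1% of all genes rose and 31.2% fell. Mcm6, Mcm7 and Cdt1 did not pass there, with log2 changes of -0.50, 0.60 and -0.29 (adjusted p = 0.0578, 0.0588 and 0.228). In NSN oocytes 4 rose and 5 fell, where 25.5% of all genes rose and 30.8% fell, and Mcm7 did not pass (0.59, adjusted p = 0.0786). Mcm6 did pass in SN oocytes with DESeq2 (adjusted p = 0.0221), with limma on log2(FPKM + 1) (adjusted p = 0.0346) and without NSN-MII replicate 3 (adjusted p = 0.0106). It did not pass there with limma without the filter on FPKM. Mcm7 passed in SN oocytes when any of SN-GV replicate 2, SN-MII replicate 1 and NSN-MII replicates 1 and 3 was left out (adjusted p = 0.0317 to 0.0408), and in NSN oocytes without NSN-MII replicate 1 (adjusted p = 0.0301). All 10 had the same sign in both types. Cdt1 had a log2 change of -0.77 (SE 0.22, adjusted p = 0.00584) and Mcm6 of -1.09 (SE 0.24, adjusted p = 0.000901) in NSN oocytes.

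**Figure D4:**
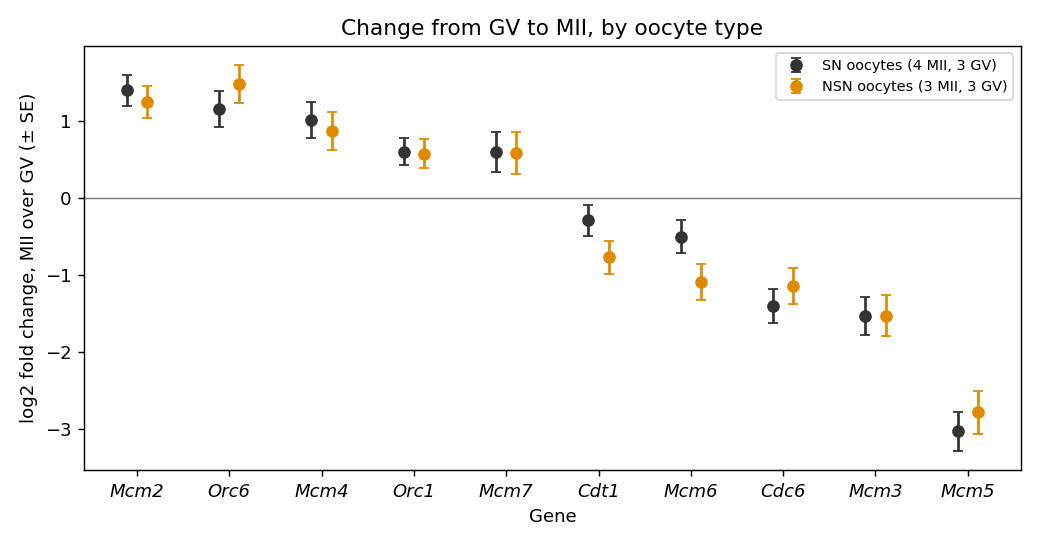
log2 fold change of MII over GV with its SE for the 10 genes, in SN oocytes (4 MII and 3 GV) and in NSN oocytes (3 MII and 3 GV). The values for Mcm3 coincide at -1.53, and those for Mcm6 (-0.50 and -1.09) and Cdt1 (-0.29 and -0.77) lie furthest apart.

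Whether the change differed between the types was tested as an interaction. None of the 10 passed, with edgeR or with DESeq2, while 2 of all genes (0.0176%) passed with edgeR and 46 with DESeq2. No member had an unadjusted p under 0.05, against 606 of all 11375 genes. The furthest from 0 was Mcm6, at -0.59 on the log2 scale (SE 0.32, unadjusted p = 0.084, adjusted p = 1), followed by Cdt1 at -0.48 (SE 0.29, unadjusted p = 0.118, adjusted p = 1). Intervals of 2 SE ran from -1.23 to 0.05 for Mcm6 and from -1.07 to 0.10 for Cdt1, so differences of these sizes could not be told from 0 with 3 or 4 oocytes a group.

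Directly between the types, no member passed at either stage. At GV 0% of 10839 genes passed with edgeR and DESeq2 also called 0, while 190 genes and none of the members had an unadjusted p under 0.05. The members' log2 differences, NSN over SN, lay between -0.25 for Orc6 and 0.26 for Mcm3. Their intervals of 2 SE reached from -0.69 to 0.65 in all. Cdc6 was the only member whose CPM did not overlap at GV, as for 6.04% of genes. It was at 120.2, 118 and 103 CPM in SN-GV and at 132, 128 and 126 CPM in NSN-GV, with a log2 difference of 0.20 (SE 0.17, adjusted p = 1).

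At MII 26 of 10028 genes (0.259%) passed with edgeR and 218 with DESeq2, and no member did with either. Mcm6 was the only member with an unadjusted p under 0.05, where 941 of the 10028 genes had one. It was also the only member whose CPM did not overlap, as for 10.2% of genes. It was at 194, 188, 169 and 163 CPM in SN-MII, and at 136, 141 and 76.9 CPM in NSN-MII. Every NSN-MII oocyte was below every SN-MII oocyte in CPM, whereas in FPKM NSN-MII replicate 2 (46.4) lay just above SN-MII replicate 4 (45.9). The log2 difference was -0.59 (SE 0.22, unadjusted p = 0.0203, adjusted p = 0.391). Without NSN-MII replicate 3, the library with the fewest genes detected, it was -0.36 (adjusted p = 0.258). Mcm6 is also on the study's own list of genes lower in NSN-MII, which was drawn from these same oocytes, so that list is not independent evidence of its direction.

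No other MCM subunit passed at MII either. Mcm4 had a log2 difference of -0.40 (SE 0.19, adjusted p = 0.559), on the same side of 0 as Mcm6, and Mcm2, Mcm3, Mcm5 and Mcm7 had differences of 0.02, 0.24, 0.26 and 0.05 (adjusted p = 0.987, 0.861, 0.859 and 0.981). The loaders lay on opposite sides of 0, with Cdc6 at 0.43 (SE 0.23, adjusted p = 0.621) and Cdt1 at -0.36 (SE 0.17, adjusted p = 0.558). Orc1 and Orc6 had differences of 0.03 and 0.06 (adjusted p = 0.979 and 0.965). Intervals of 2 SE were narrowest for Orc1, from -0.27 to 0.34. They ran from -1.03 to -0.15 for Mcm6, from -0.78 to -0.01 for Mcm4 and from -0.70 to -0.01 for Cdt1. The unadjusted p of edgeR was 0.0628 for Mcm4 and 0.0616 for Cdt1, so an interval that misses 0 here is not a test result. None of the genes in the pathway lists passed between the types at either stage with edgeR or DESeq2. At MII 2 of 24 replication fork genes tested, Prim1 and Rfc4, had an unadjusted p under 0.05, as did 941 of all 10028 genes.

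**Figure D5:**
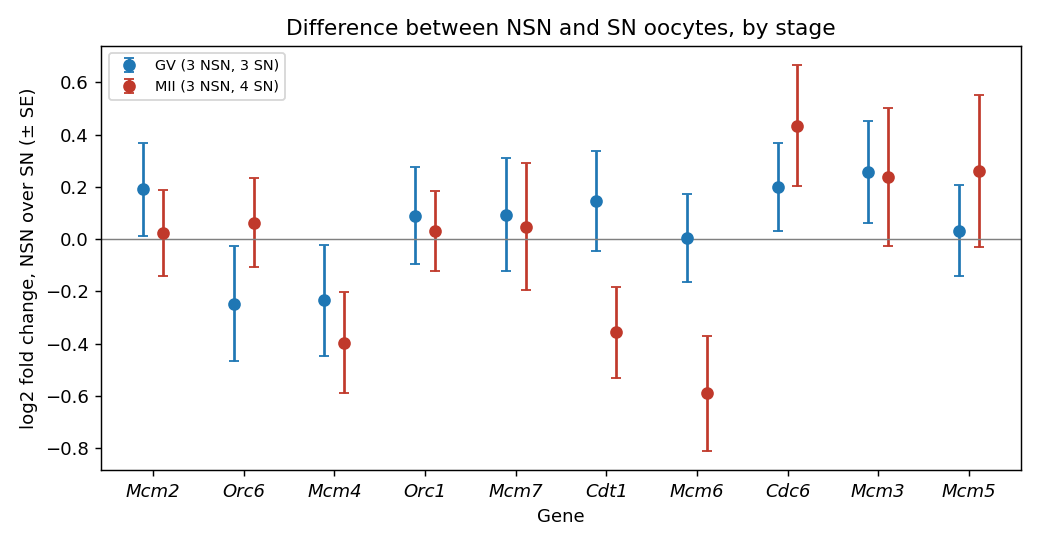
log2 fold change of NSN over SN with its SE for the 10 genes, at GV (3 NSN and 3 SN oocytes) and at MII (3 NSN and 4 SN oocytes). Values stay between -0.25 and 0.26 at GV and between -0.59 and 0.43 at MII, and none passed the test.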

How the data were processed

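The study amplified the RNA of single oocytes by SMART-seq2 and sequenced it on an Illumina HiSeq X-10. The authors trimmed reads with Trim Galore 0.4.4, mapped them to mm10 with Bowtie2 2.3.5 and estimated gene levels with RSEM 1.2.28. They deposited estimated counts in a GV and an MII table, and FPKM in another table. Groups came from the sample labels. Here the 2 count tables were joined by symbol and rounded to whole numbers (6.92% of the members' values were not whole), genes were filtered with filterByExpr, and libraries were scaled by TMM. Tests used edgeR 4.0.16 (glmQLFTest, adjusted p under 0.05), separately at GV and at MII for NSN against SN, and over all 13 libraries for stage and interaction. The scripts were tested on simulated counts. Alternatives were DESeq2 1.42.0, limma 3.58.1 on log2(FPKM + pseudocount), other scalings and filters, thinning, a replicate block and leaving out each library. Another was a minimum of 1.5-fold beside the adjusted p. Scaling by library totals was added after seeing the data. All 10 genes are described, with 16 pathway genes by name and other list genes by count; Kat7, Lrwd1, Topbp1, Recql4, Skp1a, Prim1 and Rfc4 were named after their values were seen. The members and lists were chosen with earlier results of these data known. FPKM levels were not tested. Promoters came from RefSeq and transcripts from GENCODE M21.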

Additional observations from a re-analysis of the deposited data

How the results depend on the processing

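The direction of the stage change held for all 10 genes in every alternative, with 1 library left out included. The called genes numbered 10 in the fits of all libraries, except that Mcm7 was lost with limma on FPKM and with library totals. A minimum of 1.5-fold beside the adjusted p took out Cdt1, which was 1.44-fold lower. In NSN oocytes that minimum took out Orc1, 1.49-fold higher. Scaling by library totals moved the median of all genes to -0.39 on the log2 scale and took the members called lower in SN oocytes from 3 to 5, adding Mcm6 and Cdt1, while Orc1 was lost in both types (adjusted p = 0.125 and 0.212). In SN oocytes Mcm6 passed with DESeq2 (adjusted p = 0.0221) and with DESeq2 size factors (adjusted p = 0.0325). It passed with limma on log2(FPKM + 1) and on log2(FPKM + 0.1) (adjusted p = 0.0346 and 0.0388), but not with limma without the filter on FPKM. It also passed without NSN-MII replicate 3 (adjusted p = 0.0106). Without that library Orc1 was lost in NSN oocytes (adjusted p = 0.0509). The common biological coefficient of variation was 0.352 at GV and 0.344 at MII, and single-oocyte spread rather than counting error set the precision, since every member had at least 130 counts in every library.

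With FPKM rescaled to the same sum in every library, the summed level of the 10 genes was 1052 in SN-GV, 1061 in NSN-GV, 1600 in SN-MII and 1578 in NSN-MII, against 726, 732, 912 and 896 FPKM, and neighbours apart by range in NSN-GV went from 3 to 1. The labels do not say whether replicate numbers pair the oocytes. Correlations cannot settle this, since deviations from a group mean sum to 0 within the group. Same-numbered SN-GV and NSN-GV oocytes deviated with correlations of -0.458 to -0.206. Between NSN-GV and NSN-MII they correlated at 0.0287 to 0.202, and there each NSN-GV oocyte, but not NSN-MII replicate 2, correlated best with its own number. Between SN-GV and NSN-MII the same-numbered correlations were negative, at -0.212 to -0.0732. In comparisons with SN-MII they lay on both sides of 0, from -0.119 to 0.0967. The replicate block, in which SN-MII replicate 4 has no partner and adds nothing, changed no call or count of members, and Mcm6 at MII was then at -0.69 (adjusted p = 0.592). Values that changed sign were all near 0 and not called (53 of them, none beyond 0.232 in size).

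Between types at GV, leaving out 1 library gave Mcm5 values of -0.053 to 0.149, Mcm6 of -0.076 to 0.094 and Orc1 of -0.069 to 0.171, and Mcm6 was at -0.003 with no filter and -0.009 with all libraries in 1 fit. At MII, leaving out 1 library gave Mcm2 -0.103 to 0.171, Mcm3 -0.003 to 0.416, Mcm7 -0.232 to 0.255, Orc1 -0.041 to 0.075 and Orc6 -0.132 to 0.173. In the interaction it gave Mcm2 -0.298 to 0.004, Mcm3 -0.267 to 0.188, Mcm4 -0.344 to 0.109, Mcm7 -0.325 to 0.155 and Orc1 -0.129 to 0.074. There Mcm3 was at 0.023 with DESeq2, 0.025 with its size factors, 0.004 with no filter, 0.011 with the replicate block, and 0.042, 0.071 and 0.042 in the limma fits. Mcm7 was at 0.016 with DESeq2 and with its size factors and 0.127 with the replicate block, and Orc1 at 0.028 with the replicate block and 0.010 in the limma fits. The cause was not tested.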
